A study of Macaca mulatta with 33 samples.

Results

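Hepatokines are proteins that hepatocytes secrete into the blood and that act on other organs. The genes described here were taken by name, 8 in all (FGF21, GDF15, INHBE, ANGPTL4, ANGPTL8, FETUB, LECT2 and SELENOP), and 7 of the 8 were found under their gene symbol among the 34882 genes of the deposited liver table. All 7 were among the 12497 genes tested, and SELENOP, the selenium transport protein of plasma, was not analysed here. RNA had been sequenced from the livers of 33 Japanese macaques aged 3 years, 1 library per animal, under an organism label that names the rhesus macaque. Each animal's mother ate a western-style diet (WSD) or a control diet (CD) while pregnant and nursing, and weaning put the animal itself on 1 of these diets. The mother's diet stands before the slash and the animal's own after it: WSD/WSD (n = 7, WSD in both periods), WSD/CD (n = 10, WSD from the mother only), CD/WSD (n = 6, WSD after weaning only) and CD/CD (n = 10, control diet throughout). All groups are whole liver of unmanipulated genotype as far as the labels go, with sex, kinship and the date of collection not given there.

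FGF21, which signals through FGF receptors with the co-receptor beta-klotho, is known for its induction by fasting and by cellular stress. GDF15, which acts on the brainstem receptor GFRAL, is known for its induction by cellular stress. INHBE encodes the inhibin beta E chain that forms activin E, a signal from liver to fat tissue. ANGPTL4 and ANGPTL8 restrain lipoprotein lipase, the first mainly in fasting and the second after feeding. FETUB (fetuin-B) is a protease inhibitor of the cystatin superfamily, and LECT2 is a chemotactic factor secreted by hepatocytes.

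Levels are FPKM, fragment counts that the authors scaled to transcript length and library size, and so can be set side by side between genes. LECT2 (ENSMMUG00000001947) had the highest mean over the 33 livers, 157 ± 46.7 FPKM (SD), which placed it 284th of the 12497 tested genes. FETUB (ENSMMUG00000018909) at 68.2 ± 35.3 FPKM and ANGPTL4 (ENSMMUG00000000698) at 61.7 ± 24.1 FPKM came next and were closer to each other than their spread. INHBE (ENSMMUG00000001124) at 23.03 ± 10.99 FPKM and ANGPTL8 (ENSMMUG00000009337) at 19.8 ± 15.7 FPKM also lay within each other's spread. FGF21 (ENSMMUG00000028737) stood at 5.33 ± 3.79 FPKM and GDF15 (ENSMMUG00000050122) at 1.94 ± 2.09 FPKM. No hepatokine was at 0 in any of the 33 libraries. The 3 most variable across animals were GDF15, ANGPTL8 and FGF21, whose highest liver exceeded the lowest 114-fold, 65.2-fold and 36.4-fold, against 3.63-fold for LECT2 and 5.86-fold for ANGPTL4.

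Some WSD/CD libraries stood apart from the rest, which bears on most values below. The leading digits of the animal numbers (30, 31, 33 and 34) are not explained by the labels, and all 5 animals numbered 34 are WSD/CD (replicates 6 to 10). Transcripts of the 13 mitochondrially encoded proteins took 15.8%, 11.5%, 1.98%, 16.1% and 7.58% of summed FPKM in these 5 livers, against at most 3.46% in CD/CD. Animals with other numbers also exceeded the CD/CD range, with 6.94% and 5.06% in WSD/CD replicates 2 and 3 and 4.41% in CD/WSD replicate 5. By group this share averaged 1.82% ± 0.413 (SD) for WSD/WSD, 7.12% ± 5.598 for WSD/CD, 2.39% ± 1.09 for CD/WSD and 2.35% ± 0.736 for CD/CD. The summed FPKM of 12 hepatocyte markers ranged from 15887 to 56740 in WSD/CD and from 39706 to 79822 in CD/CD, and 5 of the 12 were lower in WSD/CD by the test used below. The summed FPKM of 12 stellate cell and matrix markers ranged from 118 to 327 in WSD/CD and from 86.5 to 192 in CD/CD, and 9 of those 12 were higher. Of all 12497 tested genes, 1003 were lower and 190 higher in WSD/CD against CD/CD. After median-of-ratios scaling the marker counts were 2 and 11, with 313 of all genes lower and 414 higher. Without the animals numbered 34 both marker counts were 0, as was the count over all genes. No hepatocyte or stellate cell marker was at 0 in any library. In whole tissue, fewer cells of a type and less RNA per cell cannot be told apart.

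**Figure D1:**
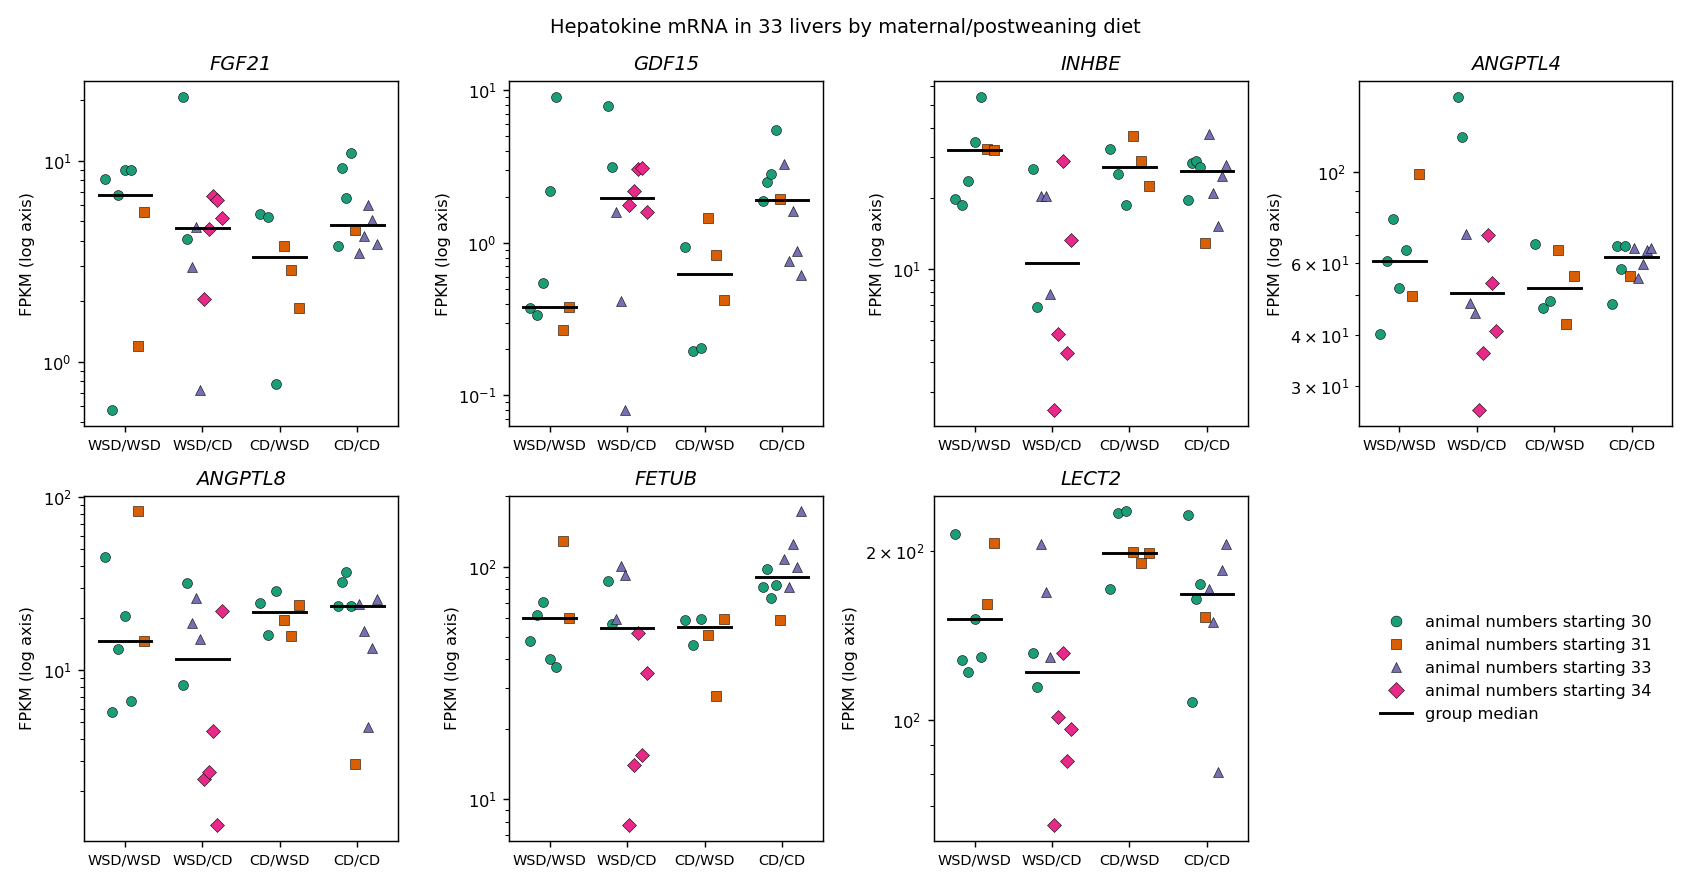
FPKM (log axis) of 7 hepatokines in each of 33 livers by diet group, with the marker shape and colour standing for the first digits of each animal number and the bar the group median. For INHBE and FETUB the lowest WSD/CD livers, at 2.50 and 7.74 FPKM, belong to animals numbered 34, while the WSD/CD livers of other animals lie between 6.87 and 26.7 FPKM for INHBE and between 56.6 and 101 FPKM for FETUB.

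INHBE showed the clearest difference by diet and was lowest in WSD/CD livers. WSD/WSD livers had a lowest, median and highest value of 18.7, 32.2 and 54.1 FPKM. WSD/CD livers had 2.50, 10.6 and 28.7 FPKM. CD/WSD livers had 18.7, 27.1 and 36.8 FPKM, and CD/CD livers had 12.9, 26.1 and 37.7 FPKM. The means were 30.8 ± 12.1 FPKM in 7 WSD/WSD livers (± SD), 13.7 ± 9.72 FPKM in 10 WSD/CD livers, 27.4 ± 6.61 FPKM in 6 CD/WSD livers and 24.3 ± 7.28 FPKM in 10 CD/CD livers. In 5 of the 10 WSD/CD livers INHBE lay below the lowest liver of the other 3 groups, and 3 of these 5 came from animals numbered 34. The other WSD/CD livers reached the range of CD/CD, so the groups overlapped.

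Differences were tested with limma on log2(FPKM + 1) in 1 model of all 33 livers, with p-values adjusted over the 12497 genes by the Benjamini-Hochberg method and an adjusted p under 0.05 as the threshold. On this scale a difference of 1 is close to a doubling of FPKM for all but the lowest genes, for which it understates the change. WSD/WSD against WSD/CD, which differ in the diet after weaning, gave INHBE a log2 fold change of 1.37 ± 0.33 (SE, limma adjusted p = 0.0024), with 7 of 7 WSD/WSD livers above the WSD/CD mean. INHBE was the 1 of 7 hepatokines that passed there, in a comparison in which 44% of all tested genes passed and 37.9% were higher. That excess of higher genes depended on scaling: 4731 genes were higher and 767 lower as reported, against 2262 and 2232 after median-of-ratios scaling, which put the median of all genes at -0.02 against 0.26 and gave INHBE 1.04 (adjusted p = 0.00919). WSD/CD against CD/CD, which differ in the mother's diet, gave INHBE -1.07 ± 0.30 (adjusted p = 0.0304), with 8 of 10 WSD/CD livers below the CD/CD mean. In WSD/CD against CD/WSD, the mother's WSD alone set against the animal's own WSD alone, INHBE differed by -1.26 ± 0.35 (adjusted p = 0.0301), with 9 of 10 WSD/CD livers below the CD/WSD mean. These 3 comparisons share the WSD/CD livers and are not independent of each other. Their SE pools the spread of all groups, though the SD of INHBE on this scale was 1.08 in WSD/CD. It was 0.52, 0.34 and 0.44 in WSD/WSD, CD/WSD and CD/CD. With only the groups compared in the model, INHBE passed in WSD/WSD against WSD/CD, where 36% of genes passed. It did not pass in WSD/CD against CD/CD or against CD/WSD, where 0 and 2 of 12497 genes passed.

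The 3 INHBE differences did not pass once the 5 animals numbered 34 were left out. Without them, INHBE was 0.96 higher in WSD/WSD than in WSD/CD on the log2 scale (adjusted p = 0.0575, where 3.46% of tested genes passed), and -0.65 (adjusted p = 0.529) and -0.84 (adjusted p = 0.325) in WSD/CD against CD/CD and against CD/WSD. The 5 remaining WSD/CD livers had 6.87, 7.84, 20.4, 20.5 and 26.7 FPKM, a mean of 16.5 ± 8.70. Among animals numbered 30 alone, the means were 30.2 FPKM for 5 WSD/WSD livers, 16.8 FPKM for 2 WSD/CD livers, 25.4 FPKM for 3 CD/WSD livers and 25.98 FPKM for 4 CD/CD livers, and no INHBE difference passed. Among animals numbered 33, which hold only WSD/CD (n = 3) and CD/CD (n = 5), the means were 16.3 and 25.3 FPKM (log2 fold change -0.66, adjusted p = 0.98). INHBE kept the same sign in every one of these fits. With the mitochondrial share as a covariate the differences were 0.59 (WSD/WSD minus WSD/CD), -0.37 (WSD/CD minus CD/CD) and -0.56 (WSD/CD minus CD/WSD), and none passed. In fits that left out 1 library each, the first of the 3 passed in 33 of 33, the second in 29 and the third in 25. WSD/CD minus CD/CD was lost without CD/CD replicate 6 or without WSD/CD replicate 6, 7 or 9. WSD/CD minus CD/WSD was lost without CD/WSD replicate 1, 2, 3 or 6 or without WSD/CD replicate 2, 6, 7 or 9.

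**Figure D2:**
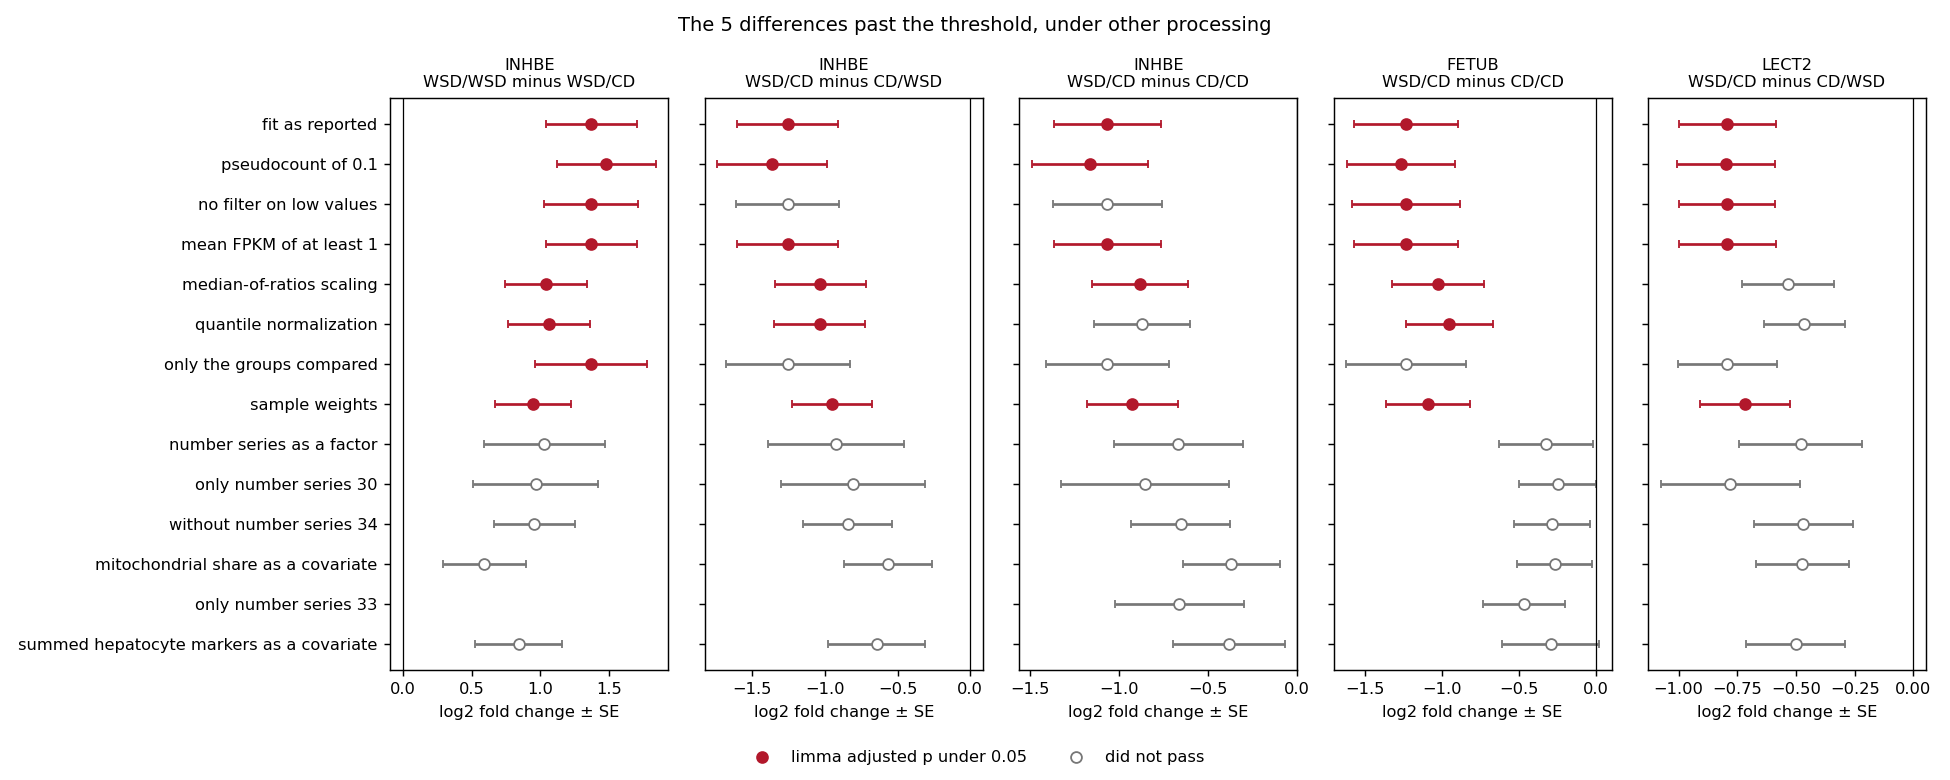
Log2 fold change with its SE on log2(FPKM + 1) (x axis) of the 5 hepatokine differences past the threshold, under the fit as reported and each other setting that gives a value (rows), with filled points where limma's adjusted p was under 0.05. No point is filled in the rows without number series 34 or with the mitochondrial share or the hepatocyte markers as a covariate, where the largest FETUB difference is -0.46 against -1.23 as reported.

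Other chains of the activin family and their receptors were counted from a list of 20 receptors and partners of the hepatokines, of which 15 were tested. INHBB, which encodes the inhibin beta B chain, averaged 15.1 ± 13.3 FPKM (SD) in WSD/WSD, 2.45 ± 3.05 FPKM in WSD/CD, 10.3 ± 5.56 FPKM in CD/WSD and 4.04 ± 2.58 FPKM in CD/CD. INHBB rose in WSD/WSD over WSD/CD (log2 fold change 2.00, limma adjusted p = 0.00161) and over CD/CD (1.33, adjusted p = 0.0406), and fell in WSD/CD relative to CD/WSD (-1.88, adjusted p = 0.0264). The type I receptor ACVR1B and the type II receptor ACVR2A were higher in WSD/WSD than in WSD/CD (0.83 and 0.58) and lower in WSD/CD than in CD/WSD (-0.63 and -0.54). Of the 15, 8 rose and 0 fell in WSD/WSD against WSD/CD (list median 0.54, all tested genes 0.26), 4 rose in WSD/WSD against CD/CD (0.36, all tested 0.10), among them the FGF receptors FGFR2 (1.70) and FGFR1 (0.59), and 3 fell in WSD/CD against CD/WSD (-0.47, all tested -0.18). Of all tested genes, 37.9% and 13.2% were higher in the first 2 comparisons, and 12.1% were lower in the third. After median-of-ratios scaling the list counts were 4 higher and 1 lower, 3 higher, and 1 higher and 2 lower. The medians were then 0.30, 0.24 and -0.24, and ACVR2A (adjusted p = 0.0783 and 0.0951) and FGFR1 (adjusted p = 0.0504) did not pass. Without the animals numbered 34, 1 rose in WSD/WSD against WSD/CD (INHBB), 4 rose in WSD/WSD against CD/CD and 0 fell in WSD/CD against CD/WSD. In that setting 3.46%, 21.9% and 0% of all tested genes passed.

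FGF21 and GDF15 did not pass the threshold in any of the 6 pairwise comparisons. FGF21 had a lowest, median and highest value of 0.572, 6.78 and 9.01 FPKM in WSD/WSD, 0.724, 4.61 and 20.8 FPKM in WSD/CD, 0.773, 3.32 and 5.44 FPKM in CD/WSD, and 3.48, 4.79 and 10.9 FPKM in CD/CD. The 4 groups overlapped widely, and each group with WSD in either period held a liver below 1 FPKM while no CD/CD liver did. The most different pair was CD/WSD against CD/CD, with means of 3.32 ± 1.85 FPKM (SD, n = 6) and 5.75 ± 2.50 FPKM (n = 10), a log2 fold change of -0.70 ± 0.41 (SE, limma adjusted p = 0.409).

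GDF15 was low in most livers of animals that ate WSD after weaning. It had a lowest, median and highest value of 0.270, 0.377 and 9.09 FPKM in WSD/WSD, 0.0796, 1.98 and 7.95 FPKM in WSD/CD, 0.194, 0.627 and 1.45 FPKM in CD/WSD, and 0.614, 1.91 and 5.502 FPKM in CD/CD. In WSD/WSD, 5 of 7 livers were below the CD/CD mean and replicate 5 was the highest of all 33 livers. CD/WSD livers averaged 0.672 ± 0.490 FPKM and CD/CD livers 2.18 ± 1.47 FPKM (SD), with 6 of 6 CD/WSD livers below the CD/CD mean. The log2 fold change of -0.85 ± 0.39 (SE) did not pass (limma p = 0.0353, adjusted p = 0.316). Only 0.024% of all tested genes passed in CD/WSD against CD/CD. With the number series as a factor in the model, GDF15 passed in CD/WSD against CD/CD (-1.30, adjusted p = 0.0131, where 34.2% of tested genes passed) and in WSD/WSD against CD/CD (-1.02, adjusted p = 0.0268, where 44.2% passed). Among animals numbered 30, the 3 CD/WSD livers lay between 0.194 and 0.932 FPKM and the 4 CD/CD livers between 1.88 and 5.502 FPKM. They did not overlap (-1.50, adjusted p = 0.0677). In those animals 39.1% of all tested genes passed in this comparison, and the share of genes without overlap was not counted. WSD/WSD against CD/CD moved with 1 library: the log2 fold change was -0.50 over all livers and -0.88 without WSD/WSD replicate 5 (adjusted p = 0.0776).

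Genes of the integrated stress response, the pathway through ATF4 that is known to induce FGF21 and GDF15, were counted beside them. Of 14 tested, DDIT3, which encodes the stress transcription factor CHOP, fell in WSD/WSD relative to CD/CD (-0.56, limma adjusted p = 0.041), with means of 37.6 ± 8.82 FPKM (SD, n = 7) in WSD/WSD and 56.5 ± 15.2 FPKM (n = 10) in CD/CD. Against WSD/CD, DDIT3 (-0.61) and ATF4 (-0.42) fell in WSD/WSD while CEBPB (1.15) and the pseudokinase gene TRIB3 (0.86) rose. Of these, TRIB3 did not pass after median-of-ratios scaling (adjusted p = 0.131). Over all tested genes, 16.7% passed in WSD/WSD against CD/CD and 44% against WSD/CD. With the animals numbered 34 left out, DDIT3 passed against CD/CD and against WSD/CD (adjusted p = 0.0383 and 0.0472), while ATF4 (-0.60, adjusted p = 0.0662), CEBPB (0.55, adjusted p = 0.118) and TRIB3 (0.75, adjusted p = 0.184) did not. None of the 14 passed in WSD/CD or CD/WSD against CD/CD, where 9.55% and 0.024% of all tested genes passed. Of 14 tested targets of PPARA, the fatty acid receptor that is known to induce FGF21 and ANGPTL4, 9 rose in WSD/WSD against WSD/CD (list median 0.82, all tested 0.26), such as the acyl-CoA synthetase ACSL1 (1.06). In WSD/CD against CD/CD, 2 of them fell, CREB3L3 (-0.97), a transcription factor known in mice to raise FGF21, and SLC25A20 (-0.63), the carnitine carrier of mitochondria. Of all tested genes, 37.9% were higher in WSD/WSD against WSD/CD and 8.03% lower in WSD/CD against CD/CD. After median-of-ratios scaling 6 of the 14 PPARA targets rose and 1 fell in these comparisons. Without the animals numbered 34 none of the 14 passed in either.

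ANGPTL4 differed little in mean between the groups but was far more variable in WSD/CD than in CD/CD. It had a lowest, median and highest value of 40.2, 60.6 and 99.2 FPKM in WSD/WSD, 26.1, 50.7 and 153 FPKM in WSD/CD, 42.6, 52.0 and 66.6 FPKM in CD/WSD, and 47.5, 62.0 and 65.9 FPKM in CD/CD. The coefficient of variation was 60.9% in WSD/CD and 10.3% in CD/CD, a difference in spread that was not tested. The 2 highest livers of all 33 were the 2 WSD/CD animals numbered 30 (153 and 122 FPKM), and the 2 lowest were WSD/CD animals numbered 34 (26.1 and 36.1 FPKM). None of the 6 comparisons passed over all livers, with log2 fold changes between -0.17 and 0.19. Among animals numbered 30, ANGPTL4 was higher in these 2 WSD/CD livers than in the 4 CD/CD livers, which lay between 47.5 and 65.9 FPKM (log2 fold change 1.20, limma adjusted p = 0.0184, where 2.92% of tested genes passed). WSD/WSD was lower than WSD/CD within number series 30 (-1.23, adjusted p = 0.0011, where 41.5% passed), and WSD/CD was higher than CD/WSD (1.35, adjusted p = 0.0013, where 39.5% passed). Over all livers the first of these differences was -0.05 and the second 0.07, neither past its SE. After median-of-ratios scaling over all livers they were 0.16 and -0.29, so their sign was not settled by these data, and in no scaling did they pass. For the few livers within number series 30, the share of all genes without overlap was not counted.

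ANGPTL8 did not pass in any comparison. It had a lowest, median and highest value of 5.71, 14.8 and 83.0 FPKM in WSD/WSD, 1.27, 11.6 and 31.96 FPKM in WSD/CD, 15.8, 21.7 and 28.7 FPKM in CD/WSD, and 2.88, 23.5 and 36.9 FPKM in CD/CD. CD/WSD was the most even group, and all groups overlapped. In animals numbered 34, ANGPTL8 stood at 2.34, 2.59, 4.45, 1.27 and 22.1 FPKM, and 3 of these were below every liver of the other 3 groups. The log2 fold change was -0.84 ± 0.49 in WSD/CD against CD/CD (limma adjusted p = 0.246) and -1.15 ± 0.57 in WSD/CD against CD/WSD (adjusted p = 0.14).

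Of 10 tested genes for control of triglyceride lipases, 4 fell in WSD/CD against CD/CD (list median -0.59, all tested -0.15), among them APOC2 (-0.92), the activator of lipoprotein lipase, the apolipoprotein gene APOA5 (-0.83) and SDC1 (-1.10), a heparan sulfate proteoglycan that binds lipoproteins. Against WSD/CD, 6 rose in WSD/WSD, including endothelial lipase LIPG (2.21) and hepatic lipase LIPC (0.81). Of all tested genes, 8.03% were lower in WSD/CD against CD/CD and 37.9% higher in WSD/WSD against WSD/CD. After median-of-ratios scaling, 1 of the 10 fell in WSD/CD against CD/CD, while 3 rose and 1 fell in WSD/WSD against WSD/CD. Leaving out the animals numbered 34, none of the 10 passed in WSD/CD against CD/CD (APOC2 -0.26, SDC1 -0.52 and APOA5 -0.75, adjusted p = 0.671, 0.735 and 0.446), and 2 rose in WSD/WSD against WSD/CD, LIPG and LIPC. Of 12 tested genes of the carbohydrate and lipogenic response, a programme driven by insulin and sugar that is also known to raise ANGPTL8, 6 rose in WSD/WSD against CD/CD and 11 against WSD/CD, among them SREBF1 (1.12 and 1.38), a transcription factor of lipid synthesis. The list medians were 1.06 and 1.11 (all tested 0.10 and 0.26), and 13.2% and 37.9% of all tested genes were higher. These counts were 10 and 1 without the animals numbered 34, where 21.9% and 3.46% of tested genes passed. ANGPTL8 itself had log2 fold changes of 0.12 and 0.96 in these comparisons (adjusted p = 0.902 and 0.15). The first changed sign after median-of-ratios scaling and the second without the animals numbered 34, each within its SE.

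**Figure D3:**
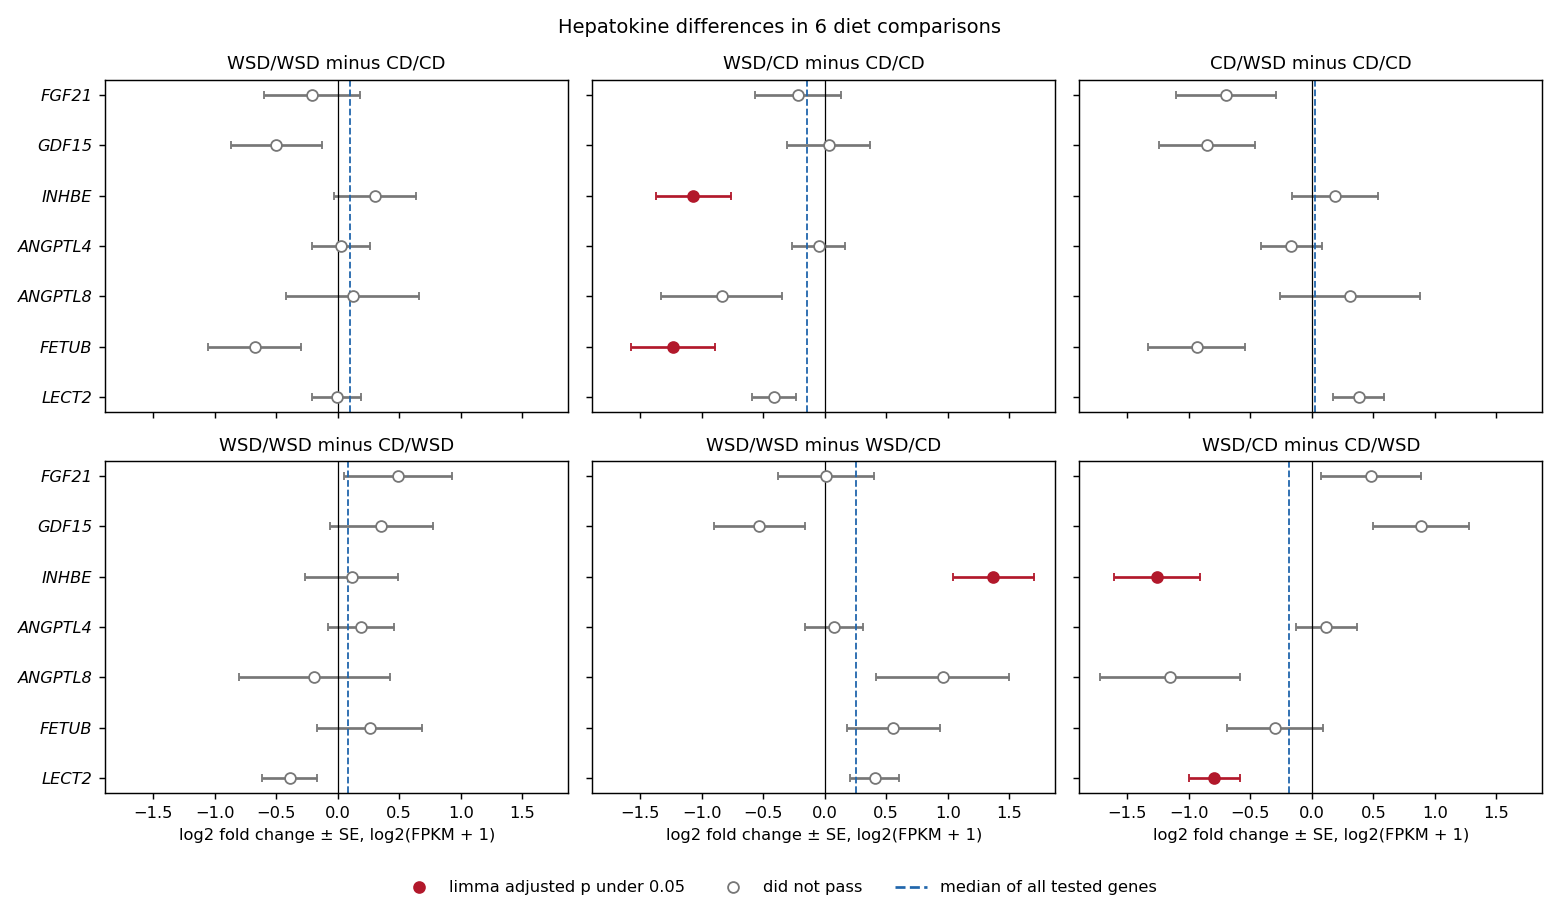
Log2 fold change with its SE on log2(FPKM + 1) (x axis) for 7 hepatokines in 6 diet comparisons (panels), with filled points where limma's adjusted p was under 0.05 and a dashed line at the median of all 12497 tested genes. The 5 filled points are INHBE in 3 comparisons, FETUB in WSD/CD minus CD/CD (-1.23) and LECT2 in WSD/CD minus CD/WSD (-0.79), each of which involves WSD/CD.

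FETUB was highest in CD/CD. WSD/WSD livers had a lowest, median and highest value of 37.0, 60.0 and 128.6 FPKM. WSD/CD livers had 7.74, 54.3 and 100.6 FPKM, CD/WSD livers 27.7, 54.8 and 59.5 FPKM, and CD/CD livers 59.0, 90.4 and 172.5 FPKM. In WSD/WSD 3 of 7 livers, in WSD/CD 6 of 10 and in CD/WSD 4 of 6 were below the lowest CD/CD liver, and in each case the groups overlapped. Group means were 63.6 ± 31.1 FPKM (SD) for WSD/WSD, 52.0 ± 33.9 FPKM for WSD/CD, 50.4 ± 12.4 FPKM for CD/WSD and 98.2 ± 32.2 FPKM for CD/CD.

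Only WSD/CD against CD/CD passed over all livers, with a log2 fold change of -1.23 ± 0.34 (SE, limma adjusted p = 0.0283) and 9 of 10 WSD/CD livers below the CD/CD mean. FETUB and INHBE were the 2 of 7 hepatokines past the threshold in that comparison, in which 9.55% of all tested genes passed and 8.03% were lower. These calls rest on a spread pooled over all groups, though the SD of FETUB on the log2 scale was 1.24 in WSD/CD and 0.43 in CD/CD. With only these groups in the model, 0 of 12497 genes passed by limma. All tested genes split into 190 higher and 1003 lower as reported, and into 414 and 313 after median-of-ratios scaling, which gave FETUB -1.03 (adjusted p = 0.0388) and INHBE -0.88 (adjusted p = 0.0468). Without the animals numbered 34 the difference shrank to -0.28 (adjusted p = 0.861), and 0 genes of 12497 passed there by limma, while 999 had an unadjusted p under 0.05. The animals numbered 34 had 7.74, 14.003, 52.0, 15.4 and 34.7 FPKM, and the other 5 WSD/CD livers 79.2 ± 19.8 FPKM. With the mitochondrial share as a covariate the difference was -0.27 (adjusted p = 0.869). In fits without 1 library each it ran from -1.38 to -0.99 and was lost without WSD/CD replicate 6, 7 or 9.

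The lower FETUB of animals that ate WSD after weaning had another dependence on the number series. CD/WSD against CD/CD gave -0.93 ± 0.39 (limma p = 0.0235, adjusted p = 0.29), with 6 of 6 CD/WSD livers below the CD/CD mean, and WSD/WSD against CD/CD gave -0.67 ± 0.38 (adjusted p = 0.201). Without the animals numbered 34, which belong to neither comparison but enter the shared estimate of the spread, the second was -0.67 with an adjusted p of 0.0333, where 21.9% of tested genes passed. Among animals numbered 30, the 5 WSD/WSD livers lay between 37.0 and 70.2 FPKM, the 3 CD/WSD livers between 46.1 and 59.4 FPKM and the 4 CD/CD livers between 73.4 and 97.4 FPKM. Neither WSD group overlapped CD/CD there, with log2 fold changes of -0.73 (WSD/WSD, adjusted p = 0.0084) and -0.61 (CD/WSD, adjusted p = 0.0451). In those animals 44.7% of tested genes passed in WSD/WSD against CD/CD and 39.1% in CD/WSD against CD/CD. The share of all genes without overlap was not counted. With the number series as a factor the values were -0.46 (adjusted p = 0.232) and -0.74 (adjusted p = 0.0868). Animals numbered 31 held 1 CD/CD liver (59.0 FPKM), 2 WSD/WSD livers (60.0 and 128.6 FPKM) and 3 CD/WSD livers (27.7 to 59.5 FPKM).

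AHSG, which encodes fetuin-A, the close relative of fetuin-B, averaged 499 ± 81.1 FPKM (SD) in WSD/WSD, 204 ± 142 FPKM in WSD/CD, 521 ± 191 FPKM in CD/WSD and 349 ± 104 FPKM in CD/CD. It fell in WSD/CD against CD/CD (-1.10, limma adjusted p = 0.036, but 0.0539 after median-of-ratios scaling) and against CD/WSD (-1.61, adjusted p = 0.024), and rose in WSD/WSD against WSD/CD (1.65, adjusted p = 0.0015). In both groups that ate WSD after weaning the AHSG mean was above that of CD/CD while the FETUB mean was below it, and the AHSG differences did not pass (0.56 and 0.52, adjusted p = 0.286 and 0.511). AHSG in the livers without number series 34 was -0.43 (adjusted p = 0.73) in WSD/CD against CD/CD and -0.94 (adjusted p = 0.284) against CD/WSD, and 0.98 (adjusted p = 0.0479) in WSD/WSD against WSD/CD. A list drawn up around fetuins and kininogens, not all of that family, had 5 tested genes. Of these 5, 2 rose and 1 fell in WSD/WSD against WSD/CD. AHSG and the kininogen gene KNG1 (1.16) rose, and the cystatin gene CSTB fell (-0.62). CSTB also fell in WSD/WSD against CD/CD (-0.84). Across all tested genes, 44% passed in WSD/WSD against WSD/CD and 16.7% against CD/CD. In WSD/CD, 9.55% passed against CD/CD and 14.2% against CD/WSD. Of the KNG1 and CSTB differences, only CSTB against CD/CD passed without the animals numbered 34 (adjusted p = 0.0109, where 21.9% of tested genes passed). KNG1 was then at 0.61 (adjusted p = 0.14) and CSTB at -0.43 (adjusted p = 0.234) against WSD/CD.

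LECT2 was lowest in WSD/CD and highest in CD/WSD. WSD/WSD livers had a lowest, median and highest value of 122, 151 and 214 FPKM, WSD/CD livers 64.8, 122 and 206 FPKM, CD/WSD livers 171, 198 and 235 FPKM, and CD/CD livers 80.5, 168 and 231 FPKM. In 9 of 10 WSD/CD livers LECT2 was below the lowest CD/WSD liver, and the remaining one stood within the CD/WSD range. WSD/CD averaged 123 ± 41.2 FPKM (SD, n = 10) and CD/WSD 204 ± 25.2 FPKM (n = 6), a log2 fold change of -0.79 ± 0.21 (SE, limma adjusted p = 0.0283). LECT2 and INHBE were the 2 of 7 hepatokines past the threshold in WSD/CD against CD/WSD, in which 14.2% of all tested genes passed and 12.1% were lower. With only these groups in the model, 2 of 12497 genes passed by limma, and neither was a hepatokine. After median-of-ratios scaling LECT2 had -0.53 and did not pass (adjusted p = 0.0678) while INHBE had -1.03 (adjusted p = 0.039), and all genes split into 658 higher and 589 lower, against 261 and 1514 as reported. WSD/CD against CD/CD gave -0.41 ± 0.18 (p = 0.0281, adjusted p = 0.12), and WSD/WSD against WSD/CD gave 0.41 ± 0.20 (p = 0.0486, adjusted p = 0.0938). Without animals numbered 34 the WSD/CD against CD/WSD difference was -0.47 (adjusted p = 0.43). Among animals numbered 30 it was -0.78 (adjusted p = 0.0535, where 39.5% of tested genes passed). There the 2 WSD/CD livers (114 and 131 FPKM) lay below the 3 CD/WSD livers (171 to 235 FPKM). The share of all genes without overlap between so few livers was not counted. The difference over all livers was lost without CD/WSD replicate 1, 2, 3 or 6 or without WSD/CD replicate 6, 7 or 9. It ran from -0.88 to -0.70 in the fits without 1 library each.

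**Figure D4:**
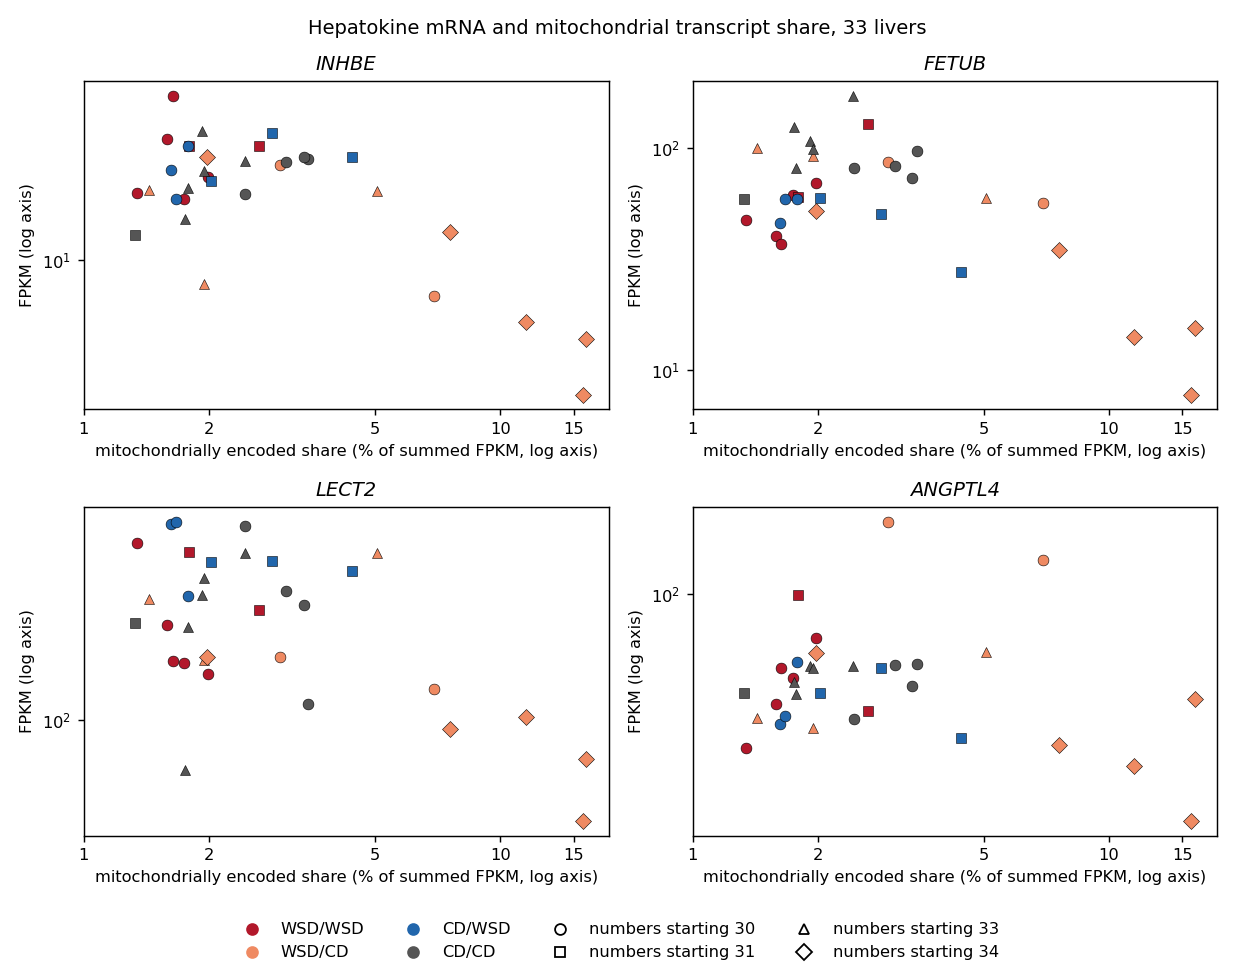
FPKM (log axis) of INHBE, FETUB, LECT2 and ANGPTL4 in each of 33 livers against the share of summed FPKM in 13 mitochondrially encoded genes (log axis), coloured by diet group and shaped by the leading digits of the animal number. The 3 livers with shares of 11.5%, 15.8% and 16.1% have the 3 lowest values of INHBE and FETUB, and 2 of them have the 2 lowest ANGPTL4 values (36.1 and 26.1 FPKM) while the other stands at 53.5 FPKM, within the range of the remaining livers.

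In the plot of levels against mitochondrial share, the libraries with the largest shares held the lowest INHBE and FETUB values. WSD/CD replicates 6, 7 and 9 had 2.50, 5.27 and 4.41 FPKM of INHBE and 7.74, 14.003 and 15.4 FPKM of FETUB, at shares of 15.8%, 11.5% and 16.1%. WSD/CD replicate 8, an animal numbered 34 with a share of 1.98%, had 28.7 FPKM of INHBE and 52.0 FPKM of FETUB. ANGPTL8 stood at 2.34, 2.59 and 1.27 FPKM in those 3 livers, the 3 lowest values of all 33. GDF15 at 1.77, 2.19 and 3.10 FPKM lay within the CD/CD range in each. FGF21 was 2.05 FPKM in the first, below every CD/CD liver, and 4.56 and 6.40 FPKM in the other two, within the CD/CD range. With the summed hepatocyte markers as a covariate, none of the 5 differences passed (adjusted p between 0.0591 and 0.9999). The part that the mitochondrial share and the hepatocyte marker level have in these differences was not tested.

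No hepatokine passed in 3 further tests. In WSD/WSD against CD/CD, where 16.7% of all tested genes passed, 0 of 7 passed by limma and 0 had an unadjusted p under 0.05. WSD/WSD and CD/WSD differ in the mother's diet among WSD-fed animals, and there 0% of all genes passed by limma (307 had an unadjusted p under 0.05) and again 0 of 7 hepatokines had an unadjusted p under 0.05. The interaction of both diets asks whether the difference by maternal diet depends on the postweaning diet, and 0% of all genes passed there by limma (2453 had an unadjusted p under 0.05). Its estimates were positive for 7 of 7 hepatokines as reported and for 5 of 7 after median-of-ratios scaling (ANGPTL4 -0.08 and LECT2 -0.30 there), largest for FETUB (1.49 ± 0.54, p = 0.0097, adjusted p = 0.21) and INHBE (1.18 ± 0.48, p = 0.0197, adjusted p = 0.215), with a median of 0.64 against 0.24 over all tested genes. Over the 7 hepatokines the median log2 fold change was -0.41 in WSD/CD against CD/CD (all tested -0.15), 0.41 in WSD/WSD against WSD/CD (0.26) and -0.30 in WSD/CD against CD/WSD (-0.18). After median-of-ratios scaling these medians were -0.20, 0.04 and -0.05, with all tested genes at 0.01, -0.02 and 0.00. Without the animals numbered 34 the medians of the 7 hepatokines were -0.10, -0.0002 and 0.44, so the third changed sign. In that setting 4 of 7 interaction estimates were positive, with a median of 0.46.

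Other secreted liver proteins were counted from a list of 18, of which 17 were tested. In WSD/CD against CD/CD, 5 fell and 1 rose (list median -0.46, all tested -0.15), but 0 fell and 2 rose after median-of-ratios scaling (median -0.26). Here the smallest p-values belonged to AHSG, SHBG (-0.50), the carrier of sex steroids, PROC (-0.43), the zymogen of protein C, and ADAMTSL2 (0.60), which was the one that rose. WSD/WSD against WSD/CD gave 5 higher and 1 lower (median 0.41, all tested 0.26), with TSKU (1.39) and SMOC1 (0.53) among those higher. After that scaling 2 were higher and 3 lower. As reported, 8.03% of all tested genes were lower in WSD/CD against CD/CD and 37.9% higher in WSD/WSD against WSD/CD. TSKU, tsukushi, averaged 95.5 ± 19.5 FPKM in WSD/WSD and 44.8 ± 30.8 FPKM in WSD/CD (SD). In WSD/WSD against CD/CD, the growth factor HGF rose (0.55) and SHBG (-0.43) and PROC (-0.41) fell, and these 3 also passed without the animals numbered 34. Across all tested genes, 16.7% passed in this comparison, and 21.9% without the animals numbered 34. In that setting none of the 17 passed in WSD/CD against CD/CD (SHBG -0.31, PROC -0.29 and ADAMTSL2 0.20, adjusted p = 0.364, 0.47 and 0.874), and TSKU (1.08, adjusted p = 0.0997) and SMOC1 (0.34, adjusted p = 0.247) did not pass in WSD/WSD against WSD/CD. Of 15 tested selenoprotein and selenium-handling genes, the setting of SELENOP, 3 fell in WSD/CD against CD/CD: GPX1 (-1.01), MSRB1 (-0.85) and SELENOF (-0.79). These were -0.24, -0.55 and -0.52 without the animals numbered 34 and did not pass (adjusted p = 0.832, 0.303 and 0.666). After median-of-ratios scaling SELENOF did not pass (-0.69, adjusted p = 0.0559), while GPX1 (-0.79, adjusted p = 0.0499) and MSRB1 (-0.63, adjusted p = 0.0152) did. Of all tested genes, 8.03% were lower in WSD/CD against CD/CD as reported. Relative to WSD/CD, 5 of the 15 rose in WSD/WSD, where 37.9% of all tested genes did, including DIO1 (1.22), a deiodinase of thyroid hormone, and SELENOF (1.24), but 3 rose and 2 fell after median-of-ratios scaling and 0 passed by limma without the animals numbered 34 (DIO1 0.57 and SELENOF 0.97, adjusted p = 0.142 and 0.0564).

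Correlations between hepatokines across animals were described next. Pearson's r of log2(FPKM + 1) was computed for the 21 pairs, with permutation tests of 100000 resamples and adjustment over the 21. With all 33 livers, 9 pairs passed, all positive. FGF21 and GDF15 had r = 0.65 and Spearman's rho = 0.52 (permutation adjusted p = 0.0016 and 0.0575), and r = 0.55 without the 2 livers farthest from the FGF21 median. FGF21 also correlated with ANGPTL4 (r = 0.42, rho = 0.35, adjusted p = 0.036 and 0.108), which dropped to r = 0.30 without its 2 farthest livers. The other 7 pairs were all among INHBE, ANGPTL4, ANGPTL8, FETUB and LECT2, with r between 0.44 and 0.62, and their rho did not pass (adjusted p between 0.0906 and 0.519).

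Without the animals numbered 34, FGF21 with GDF15 was the 1 pair of 21 past the threshold (r = 0.66, rho = 0.53, permutation adjusted p = 0.0023 and 0.0732, n = 28). Within animals numbered 30 it had r = 0.66 and rho = 0.64 (adjusted p = 0.101 and 0.12, n = 14), and none of the 21 pairs passed. With group means removed, 11 pairs passed, FGF21 with GDF15 at r = 0.63 and rho = 0.54 (adjusted p = 0.0027 and 0.0349). INHBE with FETUB had r = 0.57 over all livers and -0.14 without the animals numbered 34, and FETUB with LECT2 had 0.44 and -0.23, so these relations rest on those animals.

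**Figure D5:**
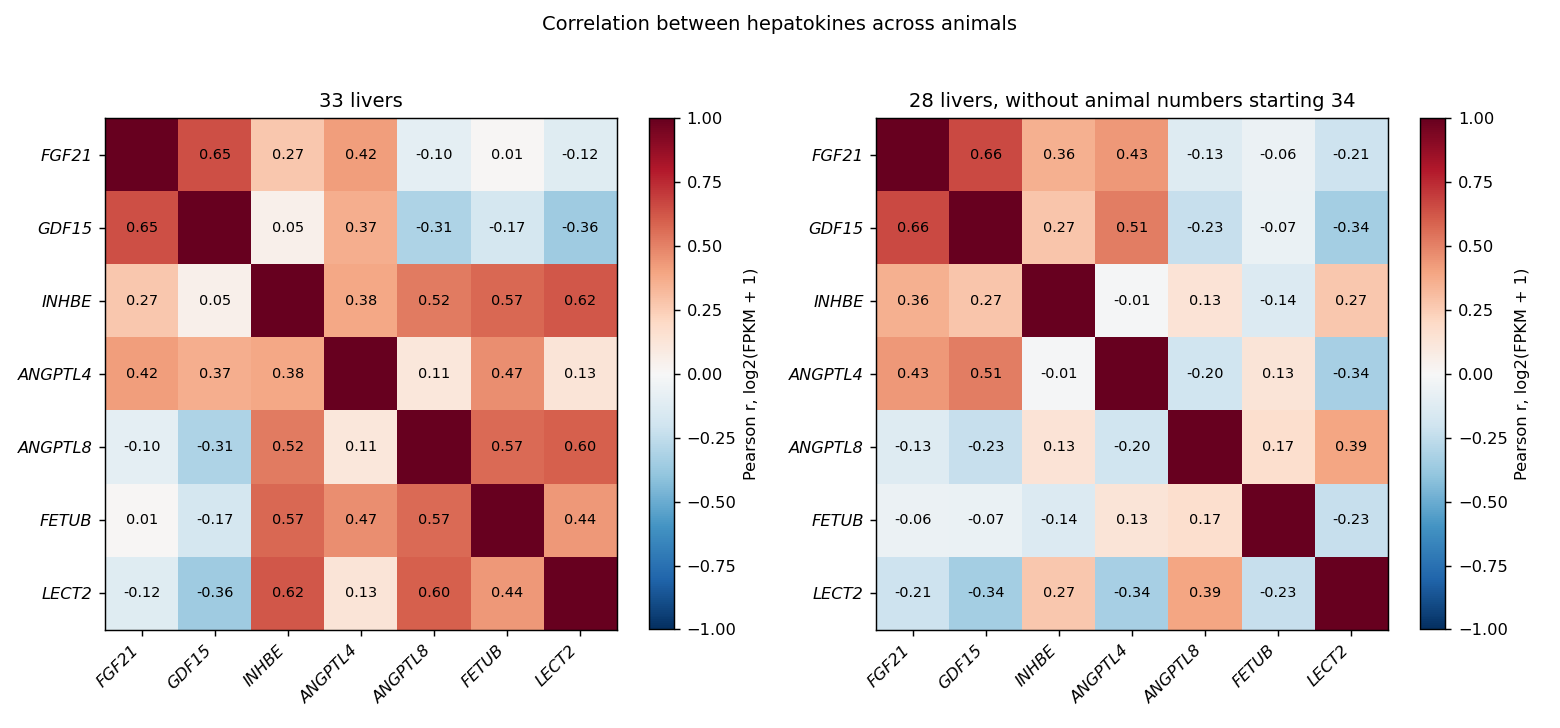
Pearson's r of log2(FPKM + 1) between 7 hepatokines across all 33 livers (left) and across the 28 livers without animals numbered 34 (right), on a colour scale from -1 to 1. FGF21 with GDF15 is 0.65 and 0.66 in the 2 panels, while INHBE with LECT2 is 0.62 and 0.27.

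For each hepatokine, the tested genes with the highest r over the 33 livers were taken as the most alike. This describes which transcripts moved together in libraries of unknown depth whose cell type marker levels differ. FGF21 was closest to MVD (r = 0.72), an enzyme of sterol synthesis, and RRAGC (0.71), a Rag GTPase, followed by GDF15. Without the animals numbered 34 these 2 had r = 0.73 and 0.74. GDF15 was closest to NOP16 (0.81), NADK (0.76) and DAPK3 (0.76), at 0.84, 0.80 and 0.75 without those animals. INHBE was closest to CXXC5 (0.90), REPIN1 (0.89) and PMM2 (0.89), at 0.78, 0.73 and 0.75 without them. ANGPTL4 was closest to HERPUD1 (0.85), a gene of the endoplasmic reticulum stress response, CCDC86 (0.84) and FAM222A (0.84), at 0.78, 0.82 and 0.85 without them.

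ANGPTL8 was closest to PECR (0.80), ANG (0.79) and AKR1D1 (0.79), a reductase of bile acid synthesis, and LECT2 to CES5A (0.80), HACD3 (0.80) and the organic anion transporter gene SLC22A7 (0.79). FETUB was closest to SC5D (0.88), SLC3A2 (0.88) and the selenoprotein gene GPX1 (0.88), which had r = 0.69, 0.70 and 0.59 without the animals numbered 34. With group means removed, FETUB was closest to DPYD (0.91), MTARC2 (0.90) and SERPIND1 (0.89), and without the animals numbered 34 these 3 had r of 0.25, 0.41 and 0.29. GDF15 and ANGPTL8 kept the same 3 closest genes when group means were removed.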

How the data were processed

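RNA of 33 livers had been extracted with the Qiagen RNeasy Mini kit, made into Swift directional mRNA libraries and sequenced as read pairs on a NovaSeq, per the labels' protocols. GSNAP, SAMtools and Cufflinks are named in the submitters' processing notes. Genome build, annotation and settings: not given in the sources used here. FPKM for 34882 genes were deposited in 1 table by the authors, in which each column carries the animal number of a sample title. FPKM are not counts, so total depth is not given by the table. Libraries had 15519 to 17298 genes above 0, and their summed FPKM ran from 321812 to 410609. The value 999999999, present for 15 genes, was treated as missing.

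The test took the 12497 genes whose mean FPKM reached 0.5 and that lacked no value. It used limma (3.58.1, R 4.3.3) on the log2 of FPKM plus a pseudocount of 1, with a mean-variance trend, 4 group means, 29 residual degrees of freedom, two-sided tests and Benjamini-Hochberg adjustment. The fit was tested on simulated data. Correlations used two-sided permutation tests. Number series means the first 2 digits of an animal's number. Relatedness of the animals is not given, so p-values take them as independent.

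The hepatokines and the gene lists were chosen with earlier results of these data known. From each list at most the 4 genes with the smallest p among those past the threshold are named, and for each hepatokine the 3 tested genes with the highest r. AHSG stands in 3 of the lists. Alternatives were a pseudocount of 0.1, no filter or a mean FPKM of at least 1, only the groups compared, quantile normalization, sample weights, median-of-ratios scaling, number series as a factor, only series 30, no series 34, the mitochondrial share as a covariate and leaving out each library. Only series 31 or 33 and the summed hepatocyte markers as a covariate were added after seeing the data. Lists of bile duct, endothelial, Kupffer, T and NK cell markers, glucocorticoid response and immediate early genes were also counted, and SELENOP and some members of the lists are not reported here.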

Additional observations from a re-analysis of the deposited data

Results flagged for a closer look

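FETUB in CD/WSD replicate 5 stood at 27.7 FPKM, and the nearest of the other 5 CD/WSD livers at 46.1 FPKM, a gap of 0.666 of the group's whole range on the log2(FPKM + 1) scale, more than Dixon's test allows for 6 samples. In FPKM the gap was 0.580 of the range and within that limit. It was the 1 flagged value among 28 groups checked (7 hepatokines in 4 diet groups), and chance alone flags about 1 in 20 groups.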

How the results depend on the processing

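The counts of hepatokines past the threshold (2 in WSD/CD against CD/CD, 1 in WSD/WSD against WSD/CD, 2 in WSD/CD against CD/WSD, 0 elsewhere) were the same with a pseudocount of 0.1 and with a mean FPKM of at least 1. In WSD/CD against CD/CD the count was 1 with no filter on low values or with quantile normalization, 0 with only the groups compared, number series as a factor, no series 34, only series 33, the mitochondrial share or the hepatocyte markers as a covariate, and 1 (ANGPTL4) in series 30. In WSD/CD against CD/WSD it was 1 with no filter, median-of-ratios scaling or quantile normalization, and 0 with only the groups compared, without series 34 or with either covariate. It was 2 with number series as a factor and in series 30, where the genes were GDF15 (1.28 and 2.11) and ANGPTL4 (0.78 and 1.35), not INHBE and LECT2, and 31.5% and 39.5% of all genes passed. In WSD/WSD against WSD/CD it was 2 with sample weights (GDF15 and INHBE, with 46.8% of all genes past the threshold), and 0 with number series as a factor, without series 34 or with either covariate. In WSD/WSD against CD/CD it was 1 with only the groups compared (FETUB), with number series as a factor (GDF15), in series 30, without series 34 or with the mitochondrial share (FETUB in each), and 2 with sample weights (39.3% of all genes). In CD/WSD against CD/CD it was 2 with sample weights (GDF15 and FETUB, 42.4% of all genes), and 1 with number series as a factor (GDF15, 34.2%) or in series 30 (FETUB, 39.1%). Without 1 library at a time these counts ran from 0 to 2 in WSD/CD against CD/CD, 1 to 2 in WSD/WSD against WSD/CD and 0 to 3 in WSD/CD against CD/WSD (GDF15 passed in the second without WSD/WSD replicate 5 and in the third without WSD/CD replicate 4 or 5, LECT2 in the second without WSD/CD replicate 3), and stayed at 0 in the other comparisons and the interaction. INHBE in WSD/WSD against WSD/CD passed under all 7 alternatives of computation that keep every library of the comparison and add no term, and ran from 1.18 to 1.52 without 1 library at a time. Reversed directions, not counting sign changes within the SE, were ANGPTL4 in series 30 (1.20 in WSD/CD minus CD/CD and -1.23 in WSD/WSD minus WSD/CD) and FETUB in WSD/WSD minus WSD/CD (-0.49 in series 30, -0.39 without series 34 and -0.52 with the mitochondrial share). Pairs of correlated hepatokines numbered 9 over all livers, 0 within series 30 and 1 without series 34. Within series 30, r was -0.33 for INHBE with ANGPTL8, -0.19 for INHBE with FETUB and -0.18 for FETUB with LECT2, and without series 34 it was -0.14 for INHBE with FETUB and -0.23 for FETUB with LECT2. Median-of-ratios scaling shifted the median of all tested genes to -0.02 (WSD/WSD minus WSD/CD), 0.01 (WSD/CD minus CD/CD) and 0.00 (WSD/CD minus CD/WSD), against 0.26, -0.15 and -0.18 as reported. The cause of these changes was not tested. No paired analysis was made, because each library is a different animal and the labels give no kinship. The labels give no replicate numbers either, and those used here number the animals within each diet group. All series 34 animals are WSD/CD, so this series and that diet cannot be told apart within it. FPKM give no counting error, and the depth is unknown.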
